A study of Mus musculus with 13 samples.

Results

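The tumors described here are 7 mouse ovarian tumors made with the same plasmids that differed in how much Myc RNA they contained. They were chosen by the measured level of Myc: among the MP tumors of batches 2 and 3, the 4 tumors with a Myc level of at least 200 TPM (transcripts per 1000000) formed the Myc-high set (MP6, MP7, MP8 and MP10), and the 3 tumors with at most 110 TPM formed the Myc-low set (MP4, MP5 and MP9). They are 7 of 10 MP tumors in a series of 13 libraries, which also holds 3 MP tumors and 3 wild-type (WT) ovaries from batch 1. Because the sets were cut from a measured value and are not groups of the study's labels, every test below describes association with Myc RNA over 7 tumors, and Myc itself was left out of all tests. A batch here is a sequencing project named in the column headers.

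All 7 tumors share their making. MP stands for the genotype that the labels write as Myc;p53-/- EPO-GEMM: ovaries of WT C57BL/6 female mice aged 8 to 12 weeks were electroporated with a Sleeping Beauty transposon vector carrying MYC, its transposase, and a plasmid for Cas9 with a guide RNA against Trp53. The mice were not treated, and RNA of whole tumor tissue was read as single-end 76-base reads after polyA selection. Electroporation reaches any cell type of the ovary and its surroundings, and the study describes the tumors as oligoclonal, so that a library is a mixture of tumor clones and host cells. In such bulk samples, fewer cells of a type and less RNA per cell cannot be told apart.

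MYC is a transcription factor that dimerizes with MAX and binds E-box sequences, the best known being CACGTG. It is known for driving ribosome production, nucleotide and polyamine synthesis and entry into the cell cycle, and for repressing cell cycle inhibitors and differentiation genes. MYC is often gained in high-grade serous ovarian carcinoma, and high MYC is also known to lower the RNA of its own relatives, including Mycn. The question put to the data was which genes across the transcriptome followed the level of Myc RNA among tumors that all received MYC.

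The Myc gene (ENSMUSG00000022346, chr15:61985391-61990374, plus strand, GRCm38) stood at 51.7 TPM in MP4, 73.6 in MP5 and 107 in MP9, and at 222 in MP6, 287 in MP7, 298 in MP8 and 419 in MP10. These values chose the tumors and are given without a test. The members nearest to the limits were MP9 at 107 TPM and MP6 at 222 TPM. The 3 tumors of batch 1 had 24.7, 7.09 and 15.3 TPM and the 3 WT ovaries 127, 126 and 129 TPM, so that the WT ovaries lay between both sets. The sources used here do not say whether the transposon carries the mouse or the human sequence, so how far its transcripts are counted in the mouse Myc row is not known.

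Batch and Myc level were not balanced: batch 2 held MP4, MP5 and MP6, with 1 Myc-high tumor, and batch 3 held MP7, MP8, MP9 and MP10, with 1 Myc-low tumor. Batch was therefore a term of the fit, and list medians are given with their values within each batch; over all tested genes these were -0.02 within batch 2 and -0.29 within batch 3. The libraries held 3892690 to 17178256 reads in genes, worked back from the TPM values, so that a single read from a gene 1 kb long stands for 0.163 to 0.790 TPM. Both sets overlapped in depth (5464497 to 17178256 reads in Myc-high and 3892690 to 8998620 in Myc-low tumors) and in the share of mitochondrial transcripts (2.47% to 5.56% and 1.73% to 4.70%).

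**Figure D1:**
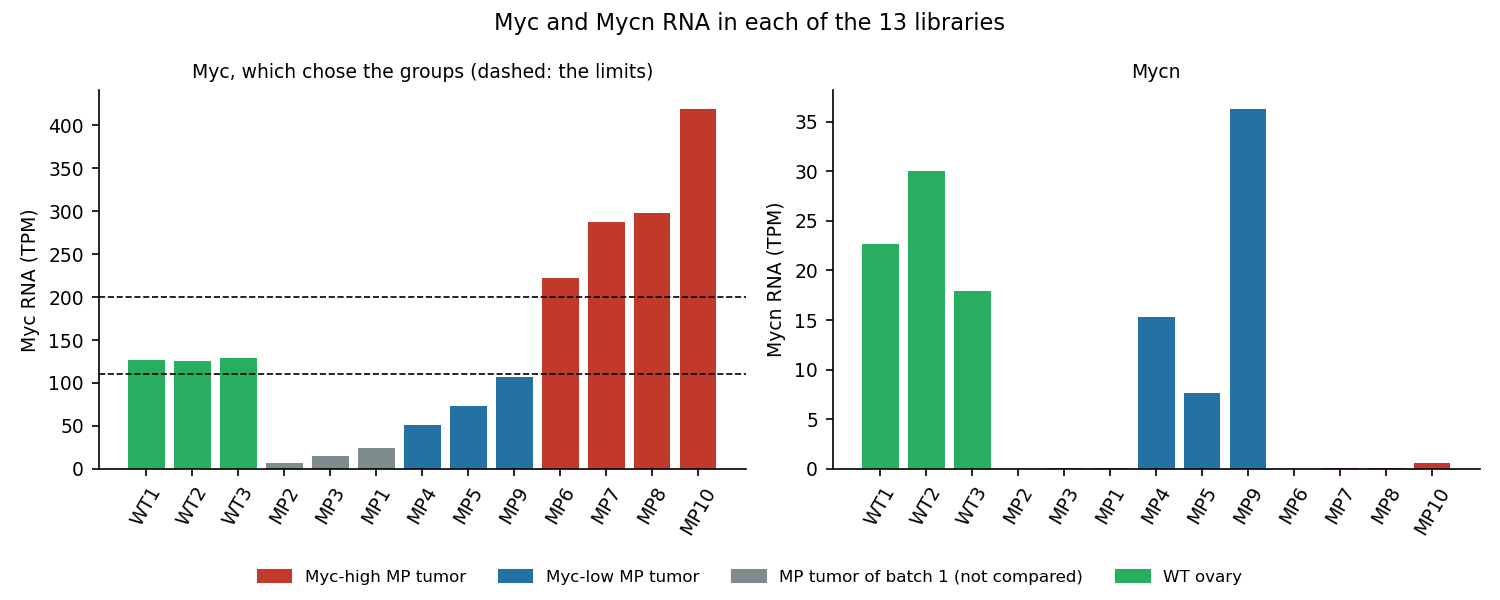
Bars give the TPM (y axis, linear from 0) of Myc (left) and Mycn (right) in each of the 13 libraries (x axis), coloured by set; dashed lines mark the limits of 110 and 200 TPM that chose the tumors. Mycn stands at 7.68 to 36.3 TPM in the 3 Myc-low tumors and at 0 to 0.585 TPM in the 4 Myc-high tumors.

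Across the transcriptome the differences that passed the test were all lower values in the Myc-high than in the Myc-low tumors. Of 15326 genes tested with limma, 10 had a Benjamini-Hochberg adjusted P under 0.05 (0.0652% of genes), and all 10 were lower in Myc-high tumors (0.0652%). No gene was called higher (0%), although 534 genes were higher (3.48%) and 1149 lower (7.5%) at an unadjusted P under 0.05, and limma-voom on the worked-back reads called 1 gene higher and 80 lower. Without the batch term, 7 genes were called higher and 56 lower. A gene was tested if it reached 1 TPM in any 3 of the 7 tumors, a condition that the 3 Myc-low tumors can meet alone: 141 of the tested genes were under 1 TPM in every Myc-high tumor and so had to be higher in Myc-low tumors, and 4 of the 10 called genes (Upk3b, Krt19, Cfi and Ppp2r2b) are among them. In the other direction, 116 tested genes were under 1 TPM in every Myc-low tumor, of which 0 were called. Without a test, every Myc-high tumor lay above every Myc-low tumor in 838 genes (5.47%) and below in 1091 genes (7.12%). The split between higher and lower depended on scaling: with median-of-ratios scaling the unadjusted counts were 875 higher and 1045 lower, and with quantile normalization 848 and 884. In tests on simulated tables with this layout, 65 of 100 genes changed by 4 on the log2 scale were called and 18 of 100 changed by 2, so a gene that was not called may still differ.

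The clearest of the 10 was Gas6 (ENSMUSG00000031451, chr8:13465374-13494490, minus strand), which encodes a secreted vitamin K-dependent ligand of the Tyro3, Axl and Mertk receptors. Gas6 stood at 1623, 1947 and 1725 TPM in MP4, MP5 and MP9, and at 70.1, 39.9, 40.4 and 32.8 TPM in MP6, MP7, MP8 and MP10. The 3 Myc-low tumors thus lay close together and far above all 4 Myc-high tumors. The fitted log2 fold change on the log2(TPM + 1) scale was -5.09 ± 0.31 (SE; limma, adjusted P = 0.0018), with -4.64 within batch 2 and -5.49 within batch 3. Gas6 stayed called when any 1 tumor other than MP9 was left out. In WT ovaries it stood at 1053 to 1482 TPM, and in the batch 1 tumors, whose Myc level was the lowest, at 2.95 to 19.2 TPM.

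Next came Upk3b, Krt19 and Cldn15. Upk3b, a uroplakin made by mesothelial cells (chr5:136038496-136046487), had 71.6, 75.9 and 335 TPM in MP4, MP5 and MP9 and 0.604, 0.117, 0.185 and 0.364 TPM in MP6, MP7, MP8 and MP10 (log2 fold change -6.90 ± 0.63, limma adjusted P = 0.024). The 4 Myc-high tumors held 13 Upk3b reads in all and the 3 Myc-low tumors 3918. Krt19, a keratin of simple epithelia, had 205, 32.8 and 151 TPM in the Myc-low tumors and was listed at 0 in MP6, MP7 and MP10 and at 0.352 TPM in MP8 (-6.76 ± 0.73, limma adjusted P = 0.0331). Its 4 reads in Myc-high tumors stood against 1485, and a fitted fold of so few reads depends on the pseudocount. Cldn15, a claudin of tight junctions, had 34.8, 34.2 and 324 TPM in MP4, MP5 and MP9 and 0.836 to 4.69 TPM in Myc-high tumors (-5.34 ± 0.57, limma adjusted P = 0.0331). In each of these 3 genes no tumor of one set reached the range of the other.

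The other called genes fell into no single class. Adgrf5 is an adhesion G protein-coupled receptor found in endothelium and lung epithelium. It was lower in Myc-high tumors by 4.01 on the log2 scale (43.5 to 125 TPM in Myc-low and 2.33 to 6.55 in Myc-high tumors, limma adjusted P = 0.0283). Efna1, a membrane-bound ligand of Eph receptors, had 167, 109 and 167 TPM in MP4, MP5 and MP9 against 9.32, 27.1, 24.7 and 16.9 TPM in MP6, MP7, MP8 and MP10 (-3.26 ± 0.40, limma adjusted P = 0.048). Stk26, a kinase of the Ste20 family (19.9 to 108 against 0.548 to 1.34 TPM), and Cfi, the complement factor I protease (12.4 to 39.8 against 0.160 to 0.662 TPM), had an adjusted P of 0.048 each in limma. Ppp2r2b, a regulatory subunit of protein phosphatase 2A whose mean level fell short of the limit set for naming genes and which is named because it was called, had 13.9, 21.6 and 32.9 TPM in Myc-low tumors and 4 reads in all in Myc-high tumors (limma adjusted P = 0.0377).

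The libraries outside the comparison took no part in the tests. In 9 of the 10 genes all 3 WT ovaries lay above every Myc-high tumor, beside 29.3% of all tested genes, and in 9 of the 10 they lay below every Myc-low tumor, beside 13.2%. The 10 genes were picked by their levels in both sets, which bears on these shares. Among the 1091 genes with every Myc-high tumor below every Myc-low tumor, the shares were 77.6% and 26.1%. The 3 batch 1 tumors had less Myc RNA than any Myc-low tumor. In 9 of the 10 genes they lay below every Myc-low tumor, beside 46.4% of all tested genes and 84.1% of those 1091 genes. The exception was Stk26, at 23.2 TPM in 1 of them. These tumors came from another sequencing project, and batch and tumor cannot be told apart there. With Myc entered as a number in place of the 2 sets, no gene was called (lowest adjusted P among the 10 genes 0.0821), at 517 genes higher and 693 lower with an unadjusted P under 0.05.

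The calls rested on few tumors. Without MP4, MP7, MP8 or MP10, 1 gene was called lower. The count was 2 without MP5, 5 without MP6 (3 of them among the 10) and 0 without MP9. All 10 genes kept a negative fold change in each of these fits. That sign was fixed in advance, since the sets did not overlap in any of the 10. Without MP9 the contrast rests on batch 2 alone, where MP6 is the single Myc-high tumor.

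**Figure D2:**
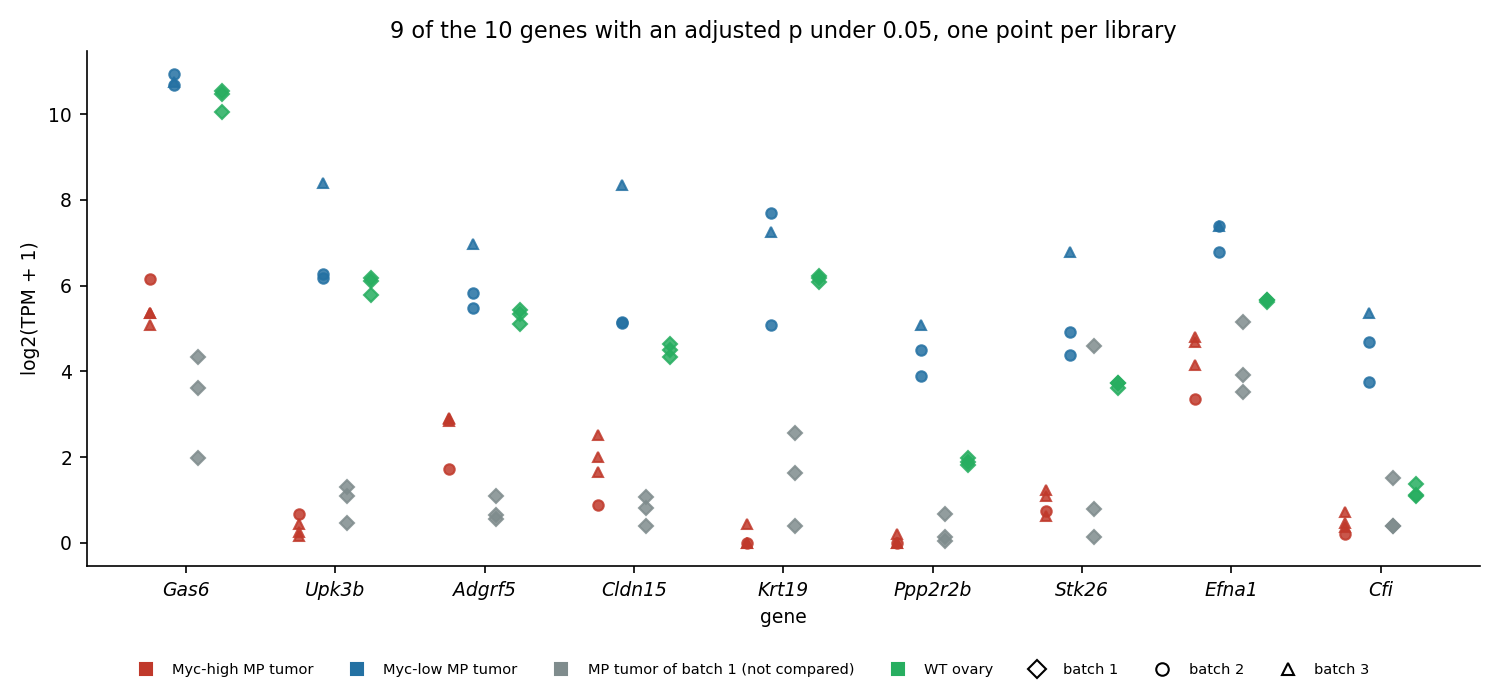
Each point is the log2(TPM + 1) level (y axis) of 9 of the 10 called genes (x axis) in 1 library, coloured by set and shaped by batch. The Myc-high and Myc-low points of each gene do not overlap. Gas6 stands at 1623 to 1947 TPM in Myc-low and 32.8 to 70.1 TPM in Myc-high tumors. The batch 1 tumors lie below every Myc-low point except in Stk26, where 1 of them stands at 23.2 TPM.

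Within the MYC network itself, the paralog Mycn came nearest to a call. Mycn, the neural member of the MYC family, had 15.3, 7.68 and 36.3 TPM in MP4, MP5 and MP9, against 0 TPM in MP6, 0.125 in MP7, 0.0496 in MP8 and 0.585 in MP10, which is 438 reads in Myc-low and 5 in Myc-high tumors. Its log2 fold change was -4.29 ± 0.58 with a limma adjusted P of 0.0592, just above the threshold, and it passed the filter through the Myc-low tumors alone. WT ovaries had 18.0 to 30.0 TPM and the batch 1 tumors 0 to 0.104 TPM. Mycl, the third family member, had 0.851, 10.4 and 1.86 TPM in MP4, MP5 and MP9 and 0.102 to 1.29 TPM in Myc-high tumors, and the sets overlapped.

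The partners and antagonists of MYC did not separate the tumors in the same way. Max, its obligate partner, had 65.3, 74.7 and 177 TPM in MP4, MP5 and MP9 and 82.4 to 151 TPM in Myc-high tumors, with a log2 fold change of -0.04 ± 0.44 that turned positive under other settings, among them 0.80 within batch 2. Zbtb17, which encodes the partner Miz-1 through which MYC represses genes, was the only member of the network with every Myc-high tumor (33.4 to 46.0 TPM) above every Myc-low tumor (21 to 28.3 TPM; limma adjusted P = 0.458). The antagonists Mxd1, Mxd4, Mnt and Mga, which compete for Max, had adjusted P values of 0.572 to 0.854 in limma. In these 4 and in Mxi1, MP10 stood above the other 3 Myc-high tumors: Mnt was at 76.6 TPM there and at 24.6 to 27 TPM in the others. In Mxd3, another antagonist, MP6 was the highest Myc-high tumor at 15.1 TPM with MP10 at 12.8 TPM, and Myc-low tumors ran from 5.80 to 42.9 TPM. Of 13 network genes 0 were called and 1 (7.69%) was lower at an unadjusted P under 0.05, near the 7.5% of all genes, and that gene was Mycn. The median log2 fold change was -0.38 beside -0.17 over all genes tested, but it was 0.12 within batch 2 and -0.75 within batch 3.

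Growth genes known as MYC targets were higher on average, and none was called. Because the median of all tested genes was -0.17, and moved up by 0.13 to 0.24 with voom, median-of-ratios scaling, quantile normalization or removal of a trend with gene length, each list is given beside that median. The lists hold genes chosen for their known roles, with earlier results of these data known. Of all tested genes 39.7% had a positive log2 fold change, the share to set beside the counts of positive genes below.

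Polyamines are small cations made from ornithine, and their synthesis is a classical MYC target pathway. Srm, spermidine synthase, had 438, 567 and 397 TPM in MP4, MP5 and MP9 and 1830.5, 1277, 1675 and 1199 TPM in MP6, MP7, MP8 and MP10. Every Myc-high tumor was above every Myc-low tumor, and the log2 fold change was 1.83 ± 0.28 at an adjusted P of 0.0724 in limma, with 1.87 within batch 2 and 1.78 within batch 3. Sms, spermine synthase, had 16.6 to 18.9 TPM in Myc-low and 33.0 to 54.1 TPM in Myc-high tumors (log2 fold change 1.02, adjusted P = 0.387). Odc1, the rate-limiting ornithine decarboxylase, overlapped between the sets (216, 200.1 and 338 against 657, 972, 561 and 204 TPM), with MP10 at the level of MP5. Mtap, which salvages the by-product of polyamine synthesis, had 50.4 to 147 against 151 to 204 TPM. Oaz2, an antizyme that holds Odc1 down, had 81.4 to 121 TPM in Myc-low and 28.4 to 75.3 TPM in Myc-high tumors. Of 11 polyamine genes 2 were higher (18.2%, beside 3.48% of all genes) and 1 lower (9.09%, beside 7.5%) at an unadjusted P under 0.05, and the list median was 0.05 (0.01 within batch 2 and 0.08 within batch 3). Srm and Mtap lie on chromosome 4. Without chromosomes 4 and 11 the median of the 9 remaining polyamine genes was -0.18. Of these 1 was higher and 1 lower at an unadjusted P under 0.05, beside 331 higher and 1011 lower of all 13101 remaining genes.

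Ribosome production takes place in the nucleolus, where factors such as Npm1, Pes1 and Ftsj3 process ribosomal RNA. Npm1, nucleophosmin, had 1560.3, 1516 and 1225 TPM in MP4, MP5 and MP9 and 3126, 3953, 4287 and 2913 TPM in MP6, MP7, MP8 and MP10 (log2 fold change 1.32, limma adjusted P = 0.147); its many processed pseudogenes could share reads with it. Pes1 had 108 to 143 TPM in Myc-low and 229 to 297 TPM in Myc-high tumors, and Ftsj3 109 to 131 and 243 to 322 TPM. All 62 tested nucleolar genes had a positive log2 fold change, with a median of 0.63 (0.96 within batch 2 and 0.36 within batch 3). Of them 13 (21%) were higher at an unadjusted P under 0.05, beside 3.48% of all genes, and 18 (29.0%) did not overlap, beside 5.47%. Their summed level was 14973 to 17428 TPM in Myc-high and 6858 to 10041 TPM in Myc-low tumors. The cytosolic ribosomal proteins, by contrast, had 0 of 79 genes at an unadjusted P under 0.05, a median of 0.14 (0.12 within batch 2 and 0.11 within batch 3) and summed levels that overlapped (110620 to 198140 and 117040 to 200920 TPM).

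Nucleotide synthesis showed the highest pooled median of the growth lists. Shmt1, which feeds one-carbon units into thymidylate and purine synthesis, had 62.8, 102 and 59.2 TPM in MP4, MP5 and MP9 and 232, 187, 230.0 and 395 TPM in MP6, MP7, MP8 and MP10 (log2 fold change 1.83, limma adjusted P = 0.136). Impdh1, which commits purine precursors to guanine nucleotides, had 49.4 to 71.5 against 112 to 201 TPM, and Dhodh, the mitochondrial step of pyrimidine synthesis, 23.4 to 34.2 against 64.2 to 70.0 TPM. The sets did not overlap in any of the 3. Of 30 genes 29 had a positive log2 fold change, with a median of 1.02 (1.16 and 0.81 within batches 2 and 3), and 16 (53.3%) were higher at an unadjusted P under 0.05, beside 3.48% of all genes.

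DNA replication genes and the chaperonins were higher by median too. In the replication list, Pold2, a subunit of polymerase delta, had 122 to 208 TPM in Myc-low and 338 to 544 TPM in Myc-high tumors (log2 fold change 1.63, limma adjusted P = 0.102), Rfc4, of the clamp loader, 76.9 to 103 against 189 to 346 TPM, and Rpa2, of the single-strand binding complex, 46.9 to 98.0 against 128 to 194 TPM. All 42 replication genes were positive with a median of 0.85 (1.31 within batch 2, 0.36 within batch 3), 10 of them (23.8%) at an unadjusted P under 0.05, beside 3.48% of all genes higher at that level. Among 17 chaperonin and prohibitin genes, which fold new proteins in the cytosol and the mitochondrion, all were positive with a median of 0.63 (0.85 and 0.35 within batches 2 and 3); Cct5 had 729 to 898 against 1285 to 1750.1 TPM. Translation factors had a median of 0.34 (0.67 and 0.25 within the batches), with 39 of 42 positive, and Eif5a, whose hypusine is made from spermidine, overlapped (1219 to 1876 against 1672 to 3798 TPM). The tRNA synthetases had a median of 0.37 (0.68 and 0.10 within the batches) with 17 of 20 positive. Of them 1 (5%) was higher at an unadjusted P under 0.05, near the 3.48% of all genes.

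Mitosis and glycolysis had unlike medians in the 2 batches. Aurkb, the kinase of the chromosomal passenger complex, had 44.5 to 91.8 TPM in Myc-low and 114 to 219 TPM in Myc-high tumors, and Cdc20, the activator of the anaphase-promoting complex, 147 to 263 against 336 to 457 TPM. The median of 30 mitosis genes was 0.99 within batch 2 and -0.11 within batch 3, and that of 20 glycolysis genes 0.59 and -0.31, beside -0.02 and -0.29 for all tested genes, so that in batch 3 glycolysis lay near the median of all genes and mitosis above it. Ldha, lactate dehydrogenase A, overlapped, with 1018 to 1244 TPM in Myc-low and 1199.7 to 3002 TPM in Myc-high tumors. A test of whether the effect differed between batches called 0 of all genes (limma interaction, smallest adjusted P = 0.837, 489 genes at an unadjusted P under 0.05), so the difference between the batch medians was not resolved gene by gene.

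**Figure D3:**
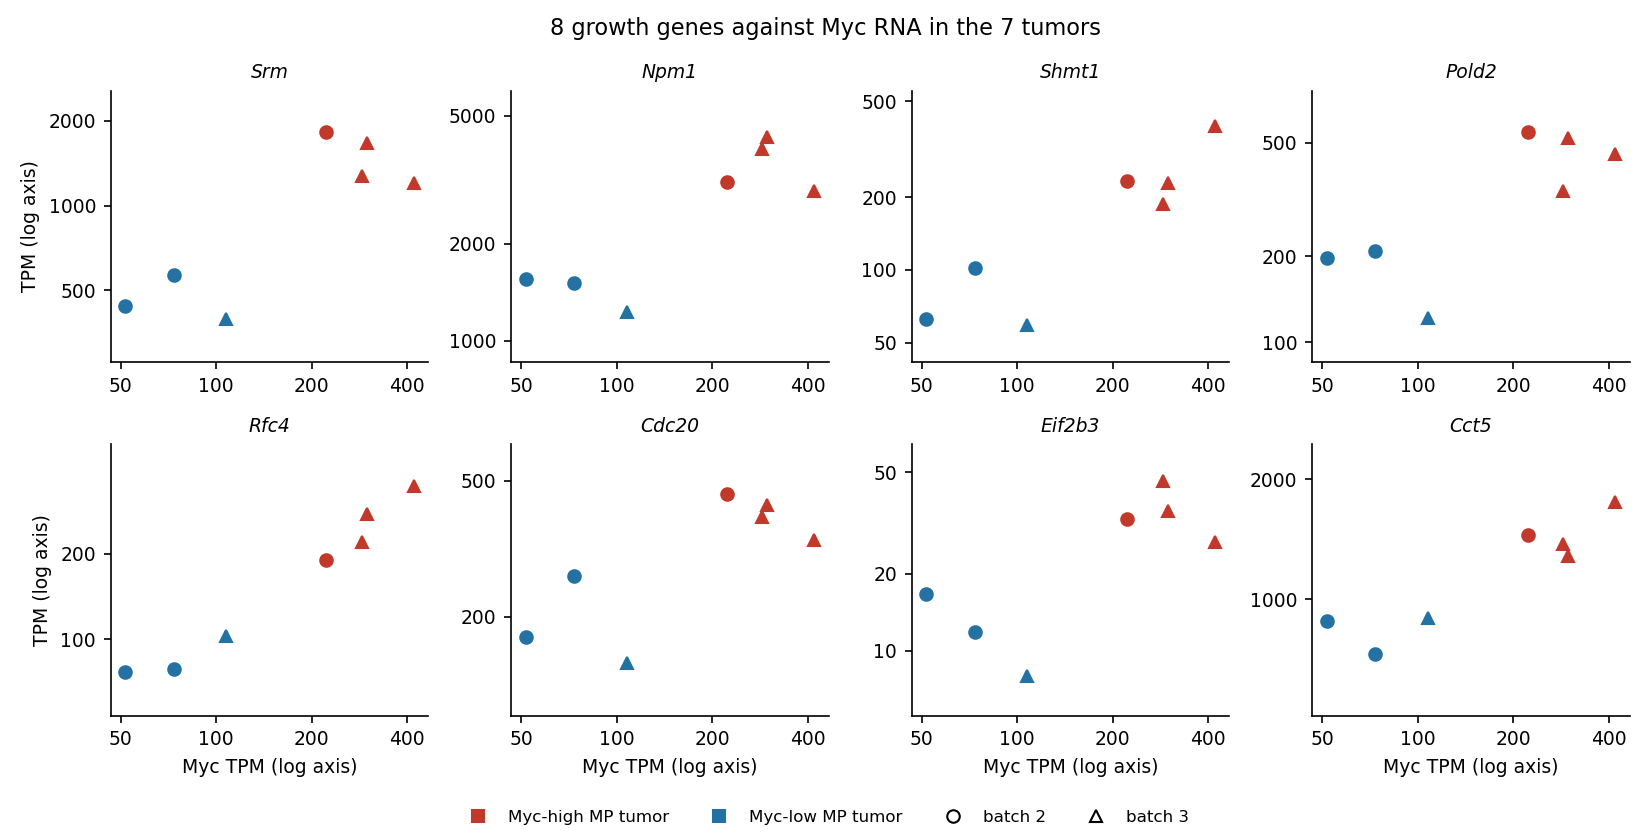
Each panel plots the TPM of a growth gene (y axis, log scale) against Myc TPM (x axis, log scale) in the 7 tumors, 1 point per tumor, coloured by set and shaped by batch. Only genes in which the 4 Myc-high points lie above the 3 Myc-low points are shown, which holds for 5.47% of all tested genes. Leading growth genes that overlap, such as Eif5a and Ldha, are left out. Srm, Npm1, Shmt1, Pold2, Cdc20 and Eif2b3 lie on chromosome 4 or 11. Srm runs from 397 to 567 TPM in Myc-low and from 1199 to 1830.5 TPM in Myc-high tumors.

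Position on the chromosomes moved with the growth genes. Of the 21 genes that lead 7 growth lists (nucleolar, translation factors, tRNA synthetases, nucleotide, chaperonin, replication and mitosis, 3 each), 10 lie on chromosome 11, which holds 8.27% of all genes tested, and 4 lie on chromosome 4. The median level of the 1268 chromosome 11 genes, relative to all genes and to the mean of the 7 tumors, was -0.56 on the log2 scale in MP9 and 0.04 to 0.14 in the other 6 tumors, and that of chromosome 4 was -0.28 in MP9 and 0.02 to 0.09 in the others. MP9 is the single Myc-low tumor of batch 3. Within batch 2, where MP9 takes no part, the median log2 fold change of chromosome 11 was -0.01, and Npm1, Pes1, Ftsj3, Shmt1 and Pold2, all on chromosome 11, had 1.02, 1.06, 1.02, 1.52 and 1.42 there. Batch 2 holds a single Myc-high tumor, and these genes were named for their large statistics over both batches. Leaving out all genes of chromosomes 4 and 11 was decided after seeing the data. The medians were then 0.60 for nucleolar genes (49 of 49 positive, 5 higher at an unadjusted P under 0.05), 0.82 for nucleotide synthesis (23 of 24 positive, 10 higher) and 0.85 for replication (35 of 35 positive, 7 higher). They were 0.63 for chaperonins (4 of 15 higher), 0.34 for translation factors (2 of 37), 0.37 for tRNA synthetases (1 of 18) and 0.26 for mitosis (1 of 25). All 13101 remaining genes had a median of -0.21, with 4878 positive and 331 higher at that level. With all chromosomes kept, the counts higher were 13 of 62, 16 of 30, 10 of 42, 6 of 17, 6 of 42, 1 of 20 and 4 of 30 in the same order. The part of the chromosomes in these values was not tested.

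Other chromosomes stood apart in 1 or 2 tumors as well. Chromosome 13 was at -0.43 in MP4 and -0.50 in MP5, the Myc-low tumors of batch 2, and at 0.15 to 0.26 in the other 5 tumors, so that its median log2 fold change was 0.62 within batch 2 and -0.41 within batch 3. Chromosome 16 was at 0.55 in MP10 and -0.09 to -0.05 in the others, and chromosome 12 at -0.45 in MP10. Chromosome 10 had the lowest median fold change (-0.47, with -0.38 and -0.55 within batches 2 and 3), but its levels split both sets, at -0.37 and -0.32 in MP6 and MP8, -0.29 in MP5, and 0.16 to 0.29 in the others. No DNA was analysed here. Near Myc itself on chromosome 15, the 6 tested genes within 2 Mb had a median log2 fold change of 0.02 and 0 calls; Pvt1, the long noncoding RNA gene next to Myc, had 3.16 to 9.36 TPM in Myc-low and 3.89 to 8.68 TPM in Myc-high tumors, and Fam84b and Fam49b overlapped too.

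The genes with the largest statistics upward were also not called. Macrod1, a mitochondrial ADP-ribosylhydrolase, had 27, 23 and 19.2 TPM in MP4, MP5 and MP9 and 162, 110.2, 87.2 and 90.3 TPM in MP6, MP7, MP8 and MP10, a difference of 2.44 ± 0.32 (SE) in log2 fold change at an adjusted P of 0.0591 in limma. Nexn, which encodes the actin-binding protein nexilin, had 10.8, 9.92 and 10.5 TPM against 51.8, 46.7, 65.0 and 89.6 TPM (2.38, limma adjusted P = 0.0836), and was the gene that limma-voom called higher. C1qbp, a mitochondrial matrix protein needed for translation there, had 220.4 to 331 against 593 to 802 TPM. Cisd3, an iron-sulfur protein of the mitochondrion (33.0 to 124 against 245 to 521 TPM), Mlf1 (16.2 to 71.0 against 75.4 to 461 TPM), Cenpv (21.2 to 93.9 against 179 to 348 TPM) and Fbxo17 (6.93 to 38.0 against 80.6 to 111 TPM) had adjusted P values of 0.0724 to 0.112 in limma. In all 4 of these the lowest Myc-low value was that of MP9. Of the 10 genes with the largest statistics upward, 4 lie on chromosome 11 and 2 on chromosome 4.

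E-boxes were looked up in the promoters because MYC binds them. The window ran from 250 bases before to 50 after the annotated start in RefSeq (GRCm38.p6), and 10666 of the tested genes had one. The motif CACGTG, which reads the same on both strands, occurred in 8.09% of all 27025 windows and in 11.6% of the windows of tested genes. It occurred in 12 of 54 nucleolar genes (22.2%) and 5 of 27 nucleotide synthesis genes (18.5%), but in 1 of 24 mitosis genes (4.17%), 6 of 58 cytosolic ribosomal protein genes (10.3%) and 1 of 9 polyamine genes (11.1%). Other growth lists held it in 9 of 32 translation factors (28.1%) and 4 of 12 tRNA synthetases (33.3%). Among lists with a negative median it occurred in 5 of 13 MYC network genes (38.5%), 6 of 21 p53 targets (28.6%), 4 of 14 immediate early genes (28.6%) and 2 of 8 MYC-repressed genes (25%), and in 0 of 20 interferon-stimulated genes, 0 of 9 macrophage and 0 of 9 endothelial markers. No difference between lists was tested. It occurred in 15.9% of the genes in which every Myc-high tumor was above every Myc-low tumor, in 10.2% of the opposite genes, and in 0 of the 6 called genes with a window. Here 4 of these promoters are shown, 30 bases on each side of the motif, with the motif in capitals; they were picked after their values were seen. The lines give Nop2, a ribosomal RNA methyltransferase (chr6:125131793-125131858, plus strand, motif 60 bases before the start), Imp4, of the small-subunit processome (chr1:34439678-34439743, plus strand, 121 bases before), Impdh2, the sister of Impdh1 (chr9:108560296-108560361, plus strand, 110 bases before), and Tyms, thymidylate synthase (chr5:30073651-30073716, minus strand, 61 bases before).
Nop2: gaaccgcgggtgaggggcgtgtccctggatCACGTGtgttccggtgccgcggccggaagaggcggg
Imp4: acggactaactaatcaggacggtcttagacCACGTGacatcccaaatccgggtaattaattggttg
Impdh2: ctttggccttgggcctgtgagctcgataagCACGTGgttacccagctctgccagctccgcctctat
Tyms: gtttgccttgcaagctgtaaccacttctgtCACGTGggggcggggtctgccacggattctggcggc

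The levels of these E-box genes were as follows. Impdh2 had 151, 228 and 356 TPM in MP4, MP5 and MP9 and 383 to 456 TPM in Myc-high tumors, and Imp4 29.2 to 41.6 against 46.4 to 62.4 TPM. Tyms had 19.7 to 40.9 against 52.3 to 203 TPM, the highest being MP10, while Nop2 overlapped (129 to 233 against 224 to 345 TPM). None was called, with adjusted P values of 0.495 to 0.576 in limma. A motif in a window is a description of letters and not evidence of binding.

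Genes known to be repressed by MYC, mostly inhibitors of cyclin-dependent kinases and differentiation genes, had a negative median with no gene called. Ndrg1, a stress and differentiation gene, had 19.9, 48.1 and 73.7 TPM in MP4, MP5 and MP9 and 6.52, 7.45, 6.86 and 11.4 TPM in MP6, MP7, MP8 and MP10 (log2 fold change -2.57, limma adjusted P = 0.116). Cdkn2c, the p18 inhibitor of CDK4 and CDK6, had 55.2 to 86.2 TPM against 3.17, 22.7, 19.8 and 54.8 TPM, so that MP10 came within reach of MP4. Cdkn2b, the p15 inhibitor, had 10.5 to 18.2 against 1.02 to 8.30 TPM. Of 11 genes 6 (54.5%) were lower at an unadjusted P under 0.05, beside 7.5% of all genes, 4 (36.4%) did not overlap, beside 7.12%, 0 were called, and the median was -1.67 (-1.57 within batch 2 and -1.38 within batch 3). Their summed level overlapped, since MP10, the tumor with the most Myc RNA, had 1132 TPM where the other Myc-high tumors had 364 to 423 TPM.

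The p53 pathway could not be read as a check of the guide, since indels need not lower the RNA. Trp53 had 14.4, 26.0 and 24.7 TPM in MP4, MP5 and MP9 and 13.5, 9.39, 22.4 and 187 TPM in MP6, MP7, MP8 and MP10, with WT ovaries at 80.7 to 85.4 TPM. MP10 was thus the only tumor of the 7 above the WT level. Cdkn2a, the Ink4a/Arf locus that MYC is known to induce through ARF, had 282 to 398 TPM in Myc-low and 232 to 777 TPM in Myc-high tumors, beside 2.59 to 3.98 TPM in WT ovaries, and overlapped. Bcl2l1, an anti-apoptotic member of the Bcl2 family, had 32.2, 37.1 and 105 TPM against 6.21 to 16.3 TPM (log2 fold change -2.32, adjusted P = 0.177), and the pro-apoptotic Bax 58.9 to 96.3 against 92.6 to 158 TPM. Of 29 p53 targets 5 were lower (17.2%, beside 7.5% of all genes) and 0 higher (beside 3.48%) at an unadjusted P under 0.05, with a median of -0.38 (-0.42 and -0.54 within batches 2 and 3) beside -0.17 over all genes, and of -0.13 relative to the chromosome medians. Cdkn1a overlapped, at 6.44, 19.2 and 82.3 TPM in MP4, MP5 and MP9 and 6.87 to 19.9 TPM in Myc-high tumors.

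Feedback targets of the Wnt pathway, which report signalling through beta-catenin, mostly had lower values in Myc-high tumors, with no call. Sp5, a transcription factor gene induced directly by Wnt, had 7.36, 9.41 and 11.3 TPM in MP4, MP5 and MP9, which is 115 reads, and was listed at 0 in all 4 Myc-high tumors. Axin2, the inhibitor induced as feedback, had 66.3, 26.6 and 34.4 TPM in MP4, MP5 and MP9 against 2.26, 4.65, 1.45 and 0.234 TPM in MP6, MP7, MP8 and MP10 (log2 fold change -3.76 ± 0.69, limma adjusted P = 0.102). Lgr5, the R-spondin receptor, had 8.32 to 20.6 against 0 to 0.724 TPM (limma adjusted P = 0.0624), and Nkd1, another feedback inhibitor, 13.7 to 23.2 against 0.701 to 2.40 TPM (limma adjusted P = 0.0913). Sp5, Lgr5 and Notum passed the filter through the Myc-low tumors alone and so had to be lower in Myc-high tumors. Of the other 8 genes 4 (50%) were lower at an unadjusted P under 0.05 and 4 did not overlap, beside 6.83% and 6.30% of all genes chosen in the same way, and their median was -1.50. Over all 11 tested 0 were called, the median was -1.92 (-1.60 within batch 2 and -2.43 within batch 3), and the summed level was 290 to 341 TPM in Myc-low and 76.0 to 115 TPM in Myc-high tumors. WT ovaries had 15.5 to 22.2 TPM of Lgr5 and 25.0 to 36.9 TPM of Axin2, and both genes are also made by normal ovarian cells.

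Interferon-stimulated genes, which encode antiviral effectors and report interferon signalling in any cell, had nearly all members at lower values, with no call. Of 27 tested, 25 (92.6%) were lower at an unadjusted P under 0.05, beside 7.5% of all genes, and 0 were called. Gbp2, a guanylate-binding GTPase, had 34.1, 60.6 and 51.4 TPM in MP4, MP5 and MP9 and 1.69, 1.97, 5.06 and 10.2 TPM in MP6, MP7, MP8 and MP10 (log2 fold change -3.61, limma adjusted P = 0.088). Oasl2 had 17.7 to 40.7 against 0.780 to 4.14 TPM, and Oasl1 2.42 to 23.4 against 0 to 1.00 TPM. Isg15, a ubiquitin-like modifier, had 31.1, 16.7 and 40.8 TPM against 1.41, 4.37, 8.86 and 16.2 TPM, with MP10 just under MP5. The median log2 fold change was -2.12 (-2.24 within batch 2 and -1.68 within batch 3).

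The exception was Bst2, tetherin, which overlapped at 333 to 726 TPM in Myc-low and 506 to 1550.1 TPM in Myc-high tumors and dominates the sum of the list. Without Bst2, a choice made after its values were seen, the other 26 genes summed to 277, 322 and 394 TPM in MP4, MP5 and MP9 and to 22.4, 36.1, 61.9 and 146 TPM in MP6, MP7, MP8 and MP10, with 407 to 596 TPM in WT ovaries and 33.5 to 84.0 TPM in the batch 1 tumors. Macrophage and T and NK cell markers, as carriers of interferon-responsive cells, overlapped between the sets (825 to 2714 against 1071 to 3076 TPM and 2.97 to 27.6 against 6.20 to 28.1 TPM in Myc-high and Myc-low tumors), and their part in the interferon values was not tested.

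The promoters of this list held the interferon-stimulated response element. Its core, searched on both strands as GAAANNGAAA after the values were seen, occurred in 13 of 20 list genes with a window (65%) and in 3.65% of the windows of tested genes. It is shown for Gbp2 (chr3:142620574-142620643, plus strand, 59 bases before the start, where the core lies on the other strand and so reads from right to left) and Isg15 (chr4:156200845-156200926, minus strand, beginning 78 bases before the start), with the core in capitals; in Isg15 the capitals join 3 overlapping cores.
Gbp2: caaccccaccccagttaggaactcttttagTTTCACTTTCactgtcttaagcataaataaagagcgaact
Isg15: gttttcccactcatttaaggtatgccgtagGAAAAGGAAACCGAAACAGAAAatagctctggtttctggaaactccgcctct

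Antigen presentation was lower by median and varied among the tumors. Psmb9, the interferon-inducible subunit of the immunoproteasome, had 30.8, 13.2 and 4.94 TPM in MP4, MP5 and MP9 against 0.971 to 3.57 TPM (limma adjusted P = 0.394), and the 14 class I presentation genes had a median of -1.14 (-1.68 and -0.48 within batches 2 and 3) with 3 (21.4%) lower at an unadjusted P under 0.05, beside 7.5% of all genes. Among class II genes, Cd74, the invariant chain, had 302, 1409 and 144 TPM in MP4, MP5 and MP9 and 11.3, 6.73, 28.7 and 728 TPM in MP6, MP7, MP8 and MP10. MP10 thus stood with the Myc-low tumors here, and H2-Aa did the same (49.0 to 279 against 3.60, 1.98, 10.5 and 111 TPM). The class II median was -4.89 within batch 2 and -1.07 within batch 3.

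**Figure D4:**
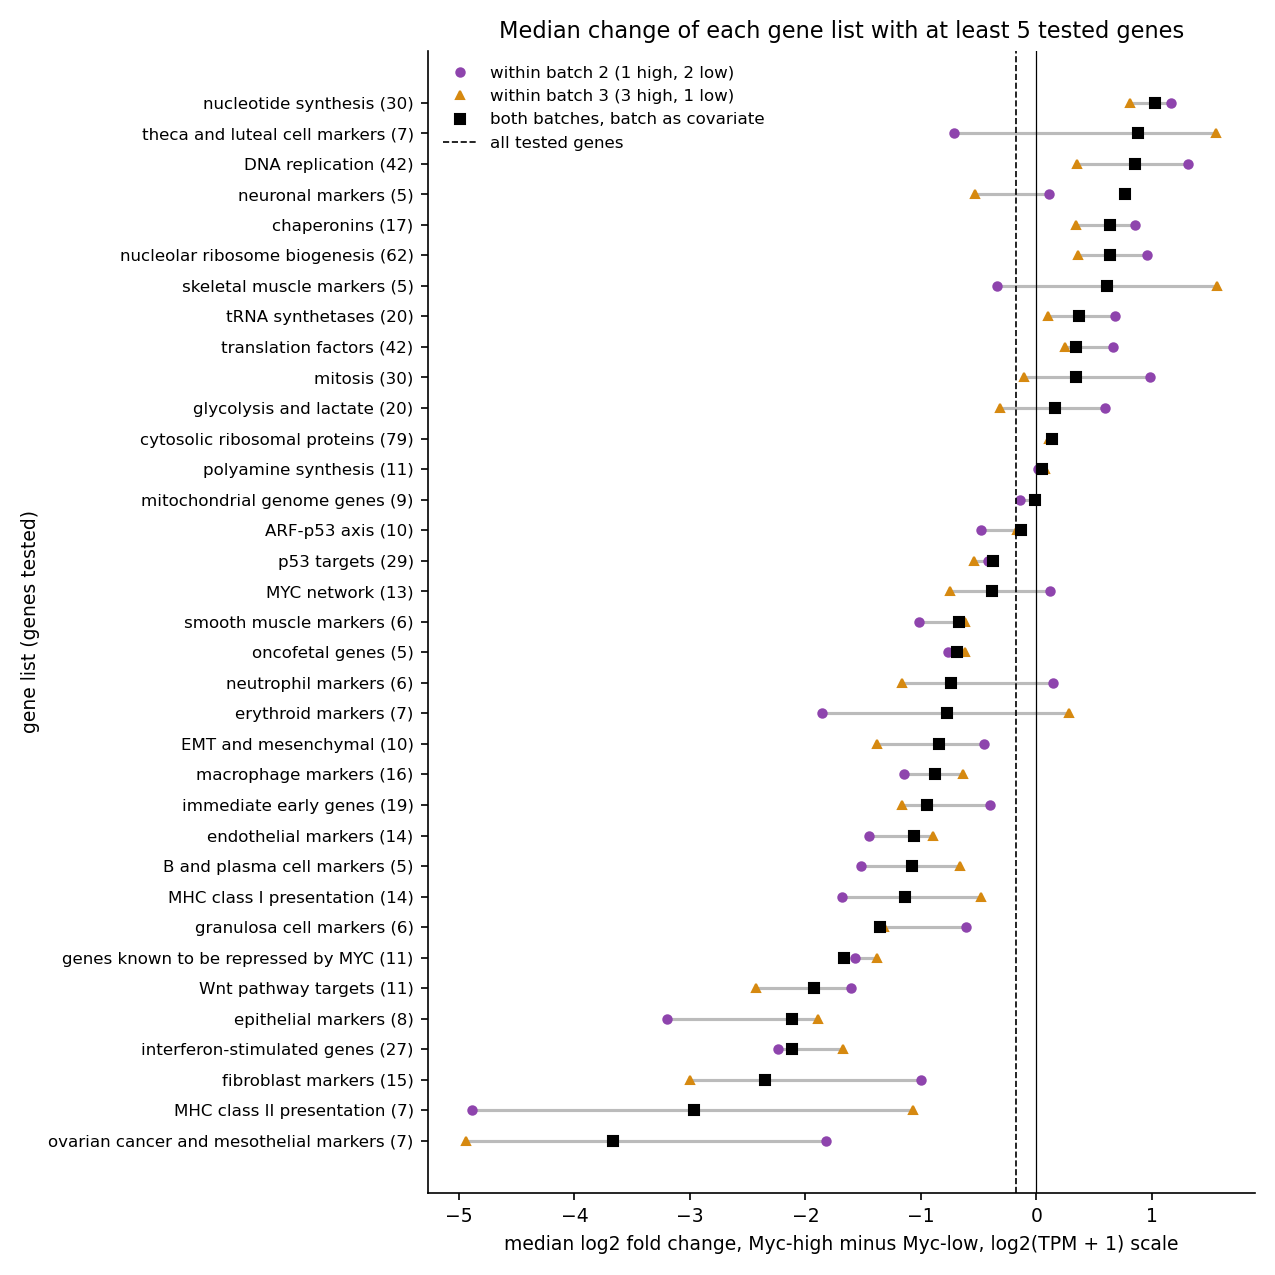
Squares give the median log2 fold change (x axis, Myc-high minus Myc-low, log2(TPM + 1) scale) of each gene list with at least 5 tested genes (y axis, number tested in parentheses), circles and triangles the medians within batches 2 and 3, and the dashed line the median of all tested genes at -0.17. Nucleotide synthesis stands highest among the growth lists at 1.02, and the ovarian cancer and mesothelial markers stand lowest at -3.67. Without Upk3b, which passed the filter through the Myc-low tumors alone, their median is -3.56.

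Markers of the cells that an ovarian tumor can hold also moved with the sets. The tumor's own label was checked against epithelial and ovarian cancer markers. Krt18, a simple-epithelial keratin, had 496, 85.8 and 264 TPM in MP4, MP5 and MP9 and 7.10, 2.06, 41.3 and 6.89 TPM in MP6, MP7, MP8 and MP10 (log2 fold change -4.70, limma adjusted P = 0.135). Wt1, a transcription factor of mesothelium and serous carcinoma, had 48.5, 163 and 129.7 TPM against 24.5, 2.60, 2.61 and 1.76 TPM, and Lrrn4, a mesothelial surface gene, 6.01, 12.6 and 162 TPM against 0.346 to 1.41 TPM. Both sets were apart in all 3 genes. The summed epithelial markers stood at 196 to 1248 TPM in Myc-low and 11.4 to 130 TPM in Myc-high tumors, and the ovarian cancer and mesothelial markers at 393 to 811 and 38 to 219 TPM. The Myc-high tumors were thus low in both lists, which include Krt19 (epithelial) and Upk3b (mesothelial); 8 of 15 epithelial markers passed the filter on low values, and 4 of the 7 besides Krt19 (57.1%) were lower at an unadjusted P under 0.05, beside 6.83% of all genes without those that passed through 1 set alone.

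Stromal markers varied widely among the Myc-low tumors. Dcn, decorin, had 91.0, 118 and 1050.4 TPM in MP4, MP5 and MP9 against 8.52, 34.6, 4.08 and 13.7 TPM in MP6, MP7, MP8 and MP10 (log2 fold change -4.94, limma adjusted P = 0.0836). The 15 fibroblast markers had a median of -2.35 (-0.995 within batch 2 and -3.00 within batch 3), with 9 (60%) lower at an unadjusted P under 0.05, beside 7.5% of all genes. Their summed level was 708, 3345 and 6783 TPM in MP4, MP5 and MP9 and 359 to 803 TPM in Myc-high tumors, so that MP4 lay among the Myc-high tumors. Esam, an endothelial junction molecule, had 29.2 to 107 against 6.32 to 28.2 TPM, and the 14 endothelial markers had a median of -1.06 (-1.45 and -0.89 within batches 2 and 3), with summed levels that overlapped (132 to 464 and 93.2 to 268 TPM). The 16 macrophage markers had a median of -0.87 (-1.15 and -0.63 within the batches) with 3 (18.8%) lower at an unadjusted P under 0.05, beside 7.5% of all genes. For T and NK cells 4 of 18 markers passed the filter. Granulosa markers overlapped in sum (246 to 1544 and 55.1 to 955 TPM), and theca and luteal markers stood at 50.3 to 901 and 147 to 1342 TPM, far under the 27308 to 32308 TPM of WT ovaries. The part of these cell types in the differences of the other genes was not tested.

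**Figure D5:**
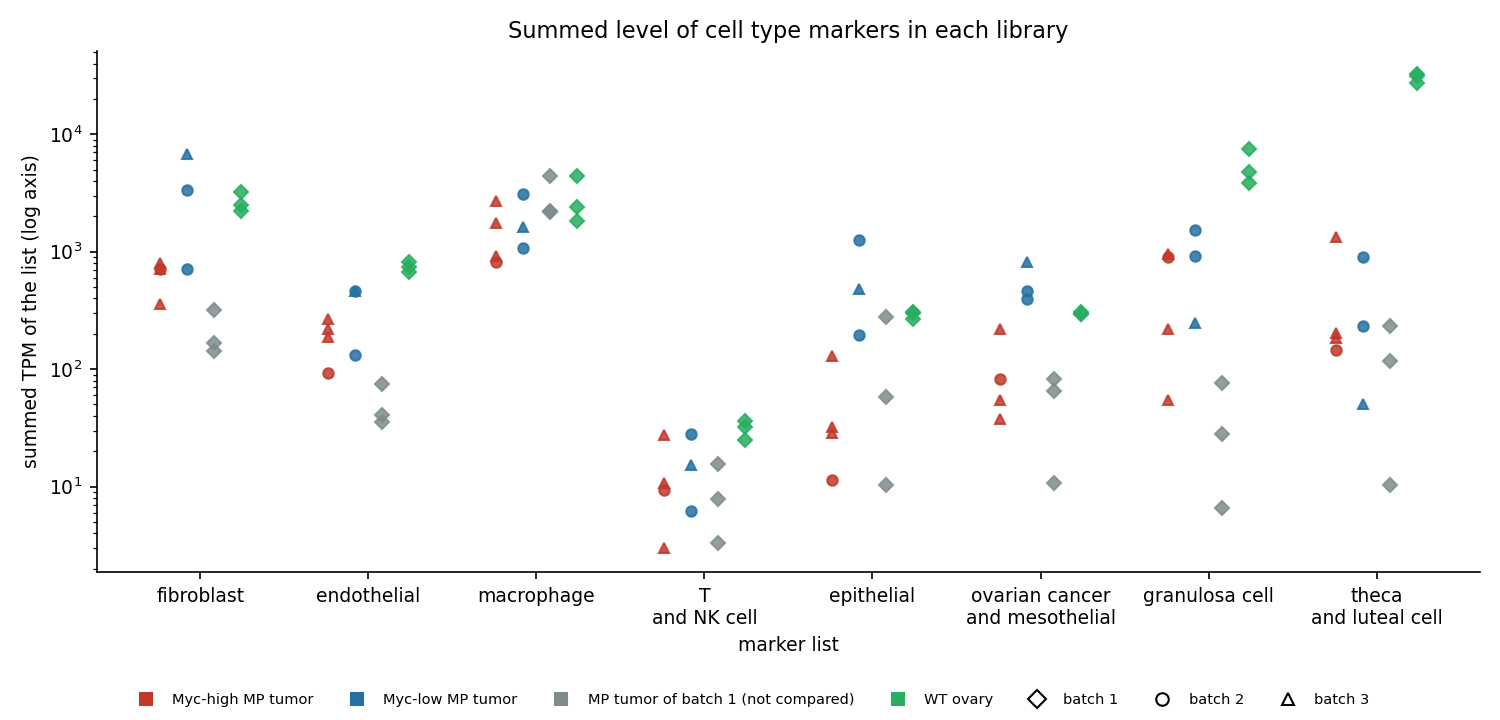
Points give the summed TPM of each marker list (y axis, log scale) in each library, coloured by set and shaped by batch. Epithelial (196 to 1248 against 11.4 to 130 TPM) and ovarian cancer and mesothelial markers (393 to 811 against 38 to 219 TPM) separate the Myc-low from the Myc-high tumors, while macrophage and T and NK cell markers overlap.

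Some further lists follow. Immediate early genes, which respond within minutes to growth factors or to handling of tissue, had a median of -0.95 (-0.40 within batch 2 and -1.17 within batch 3) with 4 of 19 (21.1%) lower at an unadjusted P under 0.05, beside 7.5% of all genes; Klf6 stood at 26.8 to 55.0 TPM in Myc-low and 10.2 to 23 TPM in Myc-high tumors, and Ctgf at 24.8 to 100.2 and 10.3 to 19.8 TPM. H19, an imprinted fetal RNA gene, had 3856, 1703 and 153 TPM in MP4, MP5 and MP9 and 49.9 to 307 TPM in Myc-high tumors. Ckm, muscle creatine kinase, went the other way, with 15.7, 6.24 and 0.904 TPM in MP4, MP5 and MP9 and 89.7, 319.7, 27.3 and 73.5 TPM in MP6, MP7, MP8 and MP10 (log2 fold change 4.36, limma adjusted P = 0.142). It leads 5 tested skeletal muscle markers, whose median was 0.61 (-0.34 within batch 2 and 1.57 within batch 3). Of the 5, 1 (20%) was higher at an unadjusted P under 0.05, beside 3.48% of all genes. The genes encoded in the mitochondrial genome had a median of -0.01 (-0.14 and -0.01 within the batches) with 0 of 9 at an unadjusted P under 0.05.

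The genes whose pattern was most like that of Myc were taken by Pearson's r with Myc on log2(TPM + 1) over the 7 tumors after centring on batch, as a description without a test. The highest were Rsad1 (0.99), Haus4 (0.99), Pbk (0.99), Ftsj3 (0.98) and Aatf (0.98). Pbk, a mitotic kinase, had 80.0, 108 and 98.3 TPM in MP4, MP5 and MP9 and 227, 187, 237 and 241 TPM in MP6, MP7, MP8 and MP10. Aatf, a nucleolar factor, had 46.9 to 62.5 against 128 to 140.3 TPM. The most opposite named here were Efna1 (-0.99), Npc2 (-0.99), a lysosomal cholesterol carrier at 127 to 158 against 68.8 to 90.3 TPM, and Axin2 (-0.98). The points share the 2 sets by which the tumors were chosen, so such an r is high for any gene that separates them.

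The batch 1 tumors, with 7.09 to 24.7 TPM of Myc, lay low in many genes: in 46.4% of all tested genes all 3 were below every Myc-low tumor, and they had 11436 to 12708 genes at 1 TPM or more, against 14498 to 15982 in Myc-low tumors. Of the 838 genes with every Myc-high tumor above every Myc-low tumor, all 3 batch 1 tumors lay below every Myc-low tumor in 65 (7.76%) and above every Myc-low tumor in 134 (16.0%, beside 3.22% of all tested genes). Of the 1091 genes in the opposite direction, they lay below every Myc-low tumor in 918 (84.1%). Both sets of genes were picked by the level of the Myc-low tumors, which bears on both shares. Srm stood at 116 to 557 TPM and Npm1 at 2282 to 3941 TPM there, against 126 to 157 and 659 to 863 TPM in WT ovaries. The batch 1 tumors took no part in the tests, 1 of them had 55.1% of its transcripts in 10 genes, and batch and tumor cannot be told apart for them.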

How the data were processed

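RNA of 7 mouse ovarian tumors was compared, taken from a table that also holds 3 further tumors and 3 WT ovaries. The values deposited by the authors are TPM for 53465 genes, which sum to 1000000 in each library; per the labels, FastQC 0.11.5, Trimmomatic 0.36, STAR 2.5.3a and featureCounts 1.6.3 were named, with mm10, while the protocol text names another build, counter and unit. The start and end of 96.2% of genes are those of GENCODE M21. Whether counting used strand is not given in the sources used here, so overlapping antisense genes cannot be told apart. Multiples of the TPM of 1 read in each library gave the reads (whole at a tolerance of 0.01).

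Tumors were selected on measured Myc TPM. log2(TPM + 1) was fitted with limma 3.58.1 in R 4.3.3 (trend and robust, batch as covariate) for genes with TPM of at least 1 in at least 3 of the 7 tumors, Myc left out. P-values are 2-sided, Benjamini-Hochberg adjusted over all 15326 genes, at a threshold of 0.05. An exact permutation test of 4 against 3 tumors cannot give a 2-sided P under 0.0571, so none is given. Labels do not say whether mice differ between libraries, so P-values measure the spread between these samples. The script was tested on simulated data: 0 of 15126 unchanged genes were called.

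The tumors, and 38 gene lists, were chosen with earlier results of these data known. Named genes were the called genes and largest statistics in each direction (mean TPM of at least 10, no overlap), members of the MYC network, polyamine and ARF-p53 lists, the 3 leading genes of each list, genes near Myc and those most like Myc; others are said to have been picked later. Alternatives covered pseudocount, filter, scaling, covariates, batches, voom and each tumor left out. Some results under the naming rule are not reported here.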

Additional observations from a re-analysis of the deposited data

Results flagged for a closer look

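Among the 4 Myc-high tumors, 15 of 144 genes and summed lists checked had 1 tumor apart from the other 3 by Dixon's ratio of the gap to the range on the log2(TPM + 1) scale, above the critical value of 0.829; chance gives such a gap in about 1 of 20 groups. MP10, the tumor with the most Myc RNA, was apart upward in Mxd1 (ratio 0.900, 13.9 TPM beside 2.10 to 2.63), Mnt (0.919, 76.6 beside 24.6 to 27), Mga (0.834, 96.15 beside 21.9 to 28.1), Sms (0.891, 54.1 beside 33.0 to 34.9), Ftsj3 (0.856, 322 beside 243 to 253) and Rsad1 (0.936, 45.0 beside 37.4 to 37.9). MP10 was also apart in the summed TPM of genes known to be repressed by MYC (0.869, 1132 beside 364 to 423) and of theca and luteal cell markers (0.855, 1342 beside 147 to 202).

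MP6 was apart downward in Adgrf5 (0.930, 2.33 TPM beside 6.13 to 6.55) and Mtap (0.871, 151 beside 196 to 204) and upward in Wt1 (0.880, 24.5 beside 1.76 to 2.61). MP6 is also the single Myc-high tumor of batch 2. MP8 was apart downward in the summed fibroblast markers (0.854, 359 TPM beside 714 to 803) and upward in Krt19 (1.000, 0.352 TPM beside 0) and Ppp2r2b (1.000, 0.164 TPM beside 0), where it held 4 reads of each gene. MP7 was apart upward in Fst (0.907, 3.06 TPM beside 0.381 to 0.526).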

How the results depend on the processing

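All 10 genes called lower kept a negative fold change in each of 22 alternatives. Since the sets did not overlap in these genes, leaving out tumors or the batch term could not turn the sign. The number of genes called lower moved widely. The count lower was 0 with Myc as a number, 0 within batch 2, 0 within batch 3, 6 with a filter at a TPM of 5, 20 without trend and robust, 80 with limma-voom, 56 without the batch covariate, 2 without a filter, 6 with a pseudocount of 0.1, 18 with a trend with gene length removed and 160 with the batch 1 tumors added. The count higher, 0 in the main analysis, was 6 with the batch 1 tumors added, 1 with limma-voom, 7 without the batch covariate and 2 with the length trend removed. With 1 tumor left out, the counts ran from 0 to 5 lower and from 0 to 1 higher. The cause of these moves was not tested, except that a single batch or a tumor less leaves fewer samples.

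Median-of-ratios scaling moved the list medians to 0.83 (nucleolar), 0.54 (translation factors), 0.84 (chaperonins) and -3.46 (ovarian cancer and mesothelial markers). Without the batch covariate those of MYC-repressed genes, Wnt targets and ovarian cancer and mesothelial markers were -1.12, -2.19 and -3.39. Without chromosomes 4 and 11 those of polyamine, Wnt and immediate early genes were -0.18, -2.69 and -0.57. With the median of its chromosome subtracted from each gene, the medians were 0.28 (polyamine), 0.83 (nucleolar), 0.55 (translation factors), 0.81 (chaperonins), -0.13 (p53 targets), -2.05 (Wnt) and -3.45 (ovarian cancer and mesothelial). Both chromosome settings, and thinning of reads to equal depth (9 lower, 0 higher), were added after seeing the data.

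Of 106 named genes in 22 alternatives, the sign turned in 28 cases, all in genes far from the threshold. Max turned to 0.80 within batch 2 and without MP9, 0.12 with voom, 0.16 with median-of-ratios scaling, 0.16 without the batch covariate, 0.13 with the length trend removed, 0.07 without MP10 and 0.08 without MP7. Within batch 2 and without MP9, Mga turned to 0.049, Mxd3 to 0.88, Cdkn2a to -0.62 and Trp53 to -0.49. Trp53 also turned to -0.10 with thinned reads, -0.60 without MP10 and -0.07 without MP4. Within batch 3 and without MP6, Pvt1 turned to -0.51 and Fam84b to -0.18. Pvt1 also turned to -0.095 with thinned reads, -0.12 without MP5 and -0.03 without MP8, and Fam84b to -0.13 without MP10 and -0.29 without MP5. With 1 tumor left out, these genes ranged from -0.80 to 0.80 (Max), -0.815 to 0.049 (Mga), -2.34 to 0.88 (Mxd3), -0.62 to 0.96 (Cdkn2a), -0.60 to 0.48 (Trp53), -0.51 to 0.66 (Pvt1) and -0.29 to 0.25 (Fam84b).

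No paired analysis was possible because the comparison lies within 1 group of the labels, whose tumors share no replicate number with each other. Depth limits genes with few reads, such as Krt19 and Ppp2r2b in Myc-high tumors.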
